A study of Mus musculus with 18 samples.

Results

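The comparison described here set testis of streptozotocin-treated mice against testis of control mice over all measured genes. It used the 3 RNA-seq libraries labelled STZ and the 3 labelled control, 6 of the 18 libraries in the series, and 20985 genes. All libraries came from testis of ICR mice, an outbred stock, at 10 weeks of age. Control mice carry that word alone as their treatment, and STZ mice received streptozotocin with no other agent. Streptozotocin is a glucose-like toxin that enters the insulin-producing beta cells of the pancreas and is widely used to make rodents diabetic. The labels give neither its dose nor blood glucose, so the metabolic state of the mice is not known here. Of the other 12 libraries, 9 also had streptozotocin and are set beside the results at the end: 3 had STZ with AOS at 10 mg/kg, 3 STZ with AOS 10 mg/kg-FMT, and 3 STZ with control-FMT. The remaining 3 had AOS at 10 mg/kg alone. The labels spell out neither abbreviation. They do not say that replicates were separate animals, so the p-values cover the scatter among libraries, which may be technical.

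The seminiferous tubule makes sperm from stem cells at its wall, through meiosis, to spermatids that lose most of their cytoplasm as they elongate. Sertoli cells, the only somatic cells inside the tubule, nurse these germ cells, engulf the cytoplasm they shed and the germ cells that die, and digest both in lysosomes. Leydig cells and macrophages lie between the tubules, and both are bathed in the signals that Sertoli and peritubular cells release. Transcription of the X chromosome is shut down in meiosis, and many housekeeping genes, several of them X-linked, have a testis-expressed copy that germ cells use in their place.

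Levels are given as FPKM, a read density scaled to transcript length and to the size of the library. This unit was inferred and is not stated with the deposited values. Differences are STZ minus control on the log2(FPKM + 1) scale, which understates changes of genes at low levels. Of the 20985 genes, 14164 reached 1 FPKM in at least 3 of the 18 libraries and were tested. A gene is said to have risen or fallen where its Benjamini-Hochberg adjusted p from limma over all 14164 genes was under 0.05. Summed levels per library lay between 561038 and 622169 FPKM. The 3 control libraries had 13080 to 13225 genes at or above 1 FPKM. The STZ libraries had 13645, 14182 and 14177 such genes.

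STZ replicate 1 stood apart from the other 2 STZ libraries. Its correlations with the control libraries over genes were 0.978 to 0.980, against 0.960 to 0.964 for replicates 2 and 3. The median gene's SD within the STZ group was 0.16 on the log2 scale, against 0.079 to 0.089 in the other groups. In a fit that weights libraries by how well they follow their group, STZ replicate 1 had a weight of 0.122, against 0.768 and 0.891 for the other STZ libraries. Its side of control differed between genes, as shown for Leydig cell genes and Lcn2 further on. Among the 813 genes that rose by at least 1 on the log2 scale, which were chosen in part on its own values, the median distance from the control mean was 0.89 in STZ replicate 1, 1.43 in replicate 2 and 1.37 in replicate 3. Several counts are therefore also given without it.

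Of the 14164 genes tested, 7823 (55.2%) differed between STZ and control: 6118 (43.2%) rose and 1705 (12%) fell. Increases reached further than decreases. By at least 1 on the log2 scale, 813 genes (5.74%) rose and 15 (0.106%) fell. For 7588 genes (53.6%) the 3 STZ values did not overlap the 3 control values, 42.1% of all genes lying higher and 11.5% lower. The split between rises and falls depended on the scale. The median difference of all tested genes was 0.17, and it moved by −0.34 when each library was centred on its median gene. After that centring 2678 genes rose and 6119 fell, with quantile normalisation 3156 rose and 4093 fell, and with a correction for transcript length and GC content 3500 rose and 4720 fell. Without STZ replicate 1, 6877 rose and 2117 fell. With only the 6 libraries compared in the fit, 4483 rose and 649 fell. Members of most gene lists below are counted on the main scale and again after median centring, which gave the fewest increases. Each main-scale count is to be read beside the 43.2% that rose and the 12% that fell over all tested genes. Each count after median centring is to be read beside the 2678 of 14164 genes that rose and the 6119 that fell on that scale. Listed genes under the filter were not tested. Of the 14164 genes 463 passed it only through the STZ libraries, of which 369 rose. The filter thus favoured genes higher in STZ, so these counts describe the tested genes and not the whole lists.

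The direction of change followed the level of the gene. Among genes averaging 1 to 5 FPKM over all 18 libraries, 56% rose and 2.1% fell. In the band from 20 to 100 FPKM, 25.6% rose and 22% fell. Over 100 FPKM, 11.3% rose and 53.4% fell, with a median difference of −0.19. FPKM values are relative to the library's total, so a fall of the most abundant transcripts and a rise of the rest cannot be told apart on this scale.

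**Figure D1:**
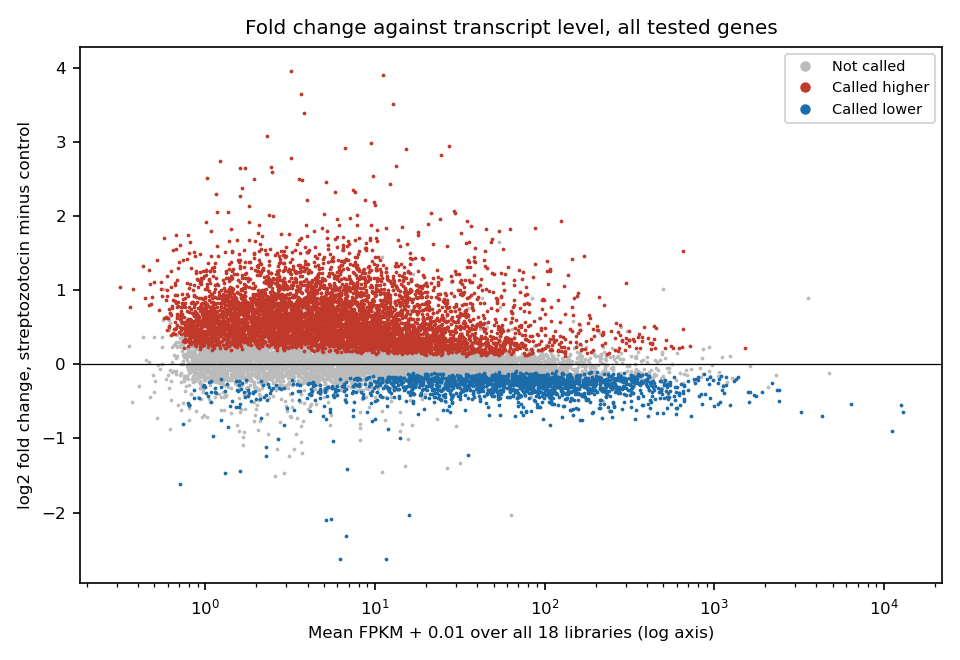
Each point is 1 tested gene, with its mean FPKM (plus 0.01) over all 18 libraries on a log axis and its log2 difference, STZ minus control, on the vertical axis. Genes of low and middle level lie mostly above 0, while over 100 FPKM the median is −0.19.

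Markers of the cells of the testis differed in direction by cell type. All 21 Sertoli markers tested (of 23 listed) rose (19 after median centring, none falling), and their summed level went from 1099, 994.9 and 999.3 FPKM in the control libraries to 2386, 3127 and 3029 FPKM in the STZ libraries. Markers of elongating spermatids summed to 68370, 62530 and 61510 FPKM in control and 56390, 31830 and 40750 FPKM in STZ, and 20 of 21 fell (14 with quantile normalisation and 7 with only the 6 libraries in the fit). For round spermatids 18 of 21 fell, and for pachytene to diplotene spermatocytes 8 of 16 fell, with none rising in either list (10 of 21 and 10 of 16 with quantile normalisation, when 1 of the 16 rose, and 6 and 2 with only the 6 libraries in the fit). Of 10 markers of undifferentiated spermatogonia tested 7 rose, turning to 4 rising and 3 falling after median centring. Of the 10, 2 passed the filter only through the STZ libraries and were among the 7 that rose. Markers of differentiating spermatogonia rose for 10 of 12 and fell for 1 (6 and 2 after median centring). For leptotene to zygotene spermatocytes 3 of 16 markers rose and 2 fell. Fibroblast and stromal markers rose for 7 of 14, beside 43.2% of all tested genes. Their sum went from 201.6 to 210 FPKM in control to 427.6 to 626.4 FPKM in STZ. Of the 14, 3 passed the filter only through the STZ libraries, and 2 of these rose. In these pieces of whole tissue, fewer cells of a type and less RNA per cell cannot be told apart.

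Of 19 macrophage markers tested 13 rose and 1 fell, and their sum was 423.9 to 435.8 FPKM in control and 513.4 to 574.5 FPKM in STZ. Most of that sum was Aif1, listed here as a macrophage marker and also the 1 to fall. Which cells expressed Aif1 was not tested. It went from 323, 329 and 343 FPKM in control to 331, 240 and 237 FPKM in STZ (−0.32). Its fall was lost without STZ replicate 2 or 3 and with only the 6 libraries in the fit. The other 18 macrophage markers summed to 113, 95.3 and 92.3 FPKM in control and 182, 334 and 313 FPKM in STZ. Of the 19, 2 passed the filter only through the STZ libraries and were among the 13 that rose. Endothelial markers rose for 10 of 13, but for 4 of 13 after median centring and 1 of 13 with quantile normalisation, with 1 falling on either scale. None of 11 neutrophil markers was high enough to be tested, and they summed to 0.56 to 0.83 FPKM in control and 1.07 to 5.44 FPKM in STZ. Mmp8, a neutrophil collagenase, was listed at 0 in all 6 libraries. None of the 4 T and NK cell markers tested passed. Blood and fat markers were uneven among the STZ libraries. Erythrocyte markers summed to 112.8, 140.9 and 99.85 FPKM in control and 61.67, 396.5 and 186.2 FPKM in STZ, and 1 of 4 tested rose. Adipocyte markers summed to 173.6, 144.4 and 161 FPKM in control and 142.3, 98.56 and 332.9 FPKM in STZ, and of 8 tested none rose and 1 fell. The part of any of these cell types in the gene groups below was not tested.

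Genes for lysosomal enzymes rose almost as a block. Of 37 tested, 32 rose and 1 fell, with a median difference of 0.87 (26 and 2 after median centring, 35 and 1 without STZ replicate 1). Of the 37, 2 passed the filter only through the STZ libraries and were among the 32 that rose. Lgmn encodes legumain, the lysosomal endopeptidase that cuts after asparagine (GRCm38 chr12:102394084-102439813, minus strand). It stood at 21.7, 21.7 and 21.6 FPKM in the control libraries and at 66.8, 84.3 and 78.9 FPKM in the STZ libraries (difference 1.77, SE 0.09, adjusted p = 4.3e-09). All 3 STZ values lay far above all 3 control values, with STZ replicate 1 only slightly below its partners. Ctsl, the cysteine protease cathepsin L, went from 130.3, 124 and 122.5 FPKM to 282.9, 399.6 and 370.6 FPKM (1.46, SE 0.09, adjusted p = 2.7e-08). Psap, the precursor of the saposins that help break down sphingolipids, went from 76.3, 78.9 and 79.3 FPKM to 172.4, 233.3 and 223.3 FPKM (1.40, SE 0.09, adjusted p = 1.9e-08). Neither gene overlapped between the groups.

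Ctss, cathepsin S, which is best known for processing antigen in macrophages and related cells, went from 2.95, 2.63 and 3.33 FPKM to 12, 24.5 and 22.3 FPKM (2.32, SE 0.19, adjusted p = 1.7e-07). Ctsd, the aspartic protease cathepsin D, went from 36.3, 37.1 and 40.4 FPKM to 67.3, 106.8 and 118.2 FPKM (1.30, SE 0.14, adjusted p = 2.3e-06). The STZ values were again all above control, and lowest in replicate 1. Arsa, arylsulfatase A, was the enzyme gene that fell (−0.17). In the membrane and acidification list, 18 of 24 tested (27 listed) rose and none fell, with a median of 0.57 (13 rose and 7 fell after median centring). Cd63, a tetraspanin of late endosomes, rose by 1.44. Scarb2, the receptor that carries glucocerebrosidase to lysosomes, rose by 1.39. Tfeb and Tfe3, which encode the transcription factors that drive lysosomal genes, rose by 0.73 and 0.77. Sertoli markers (21 of 21) and macrophage markers (13 of 19) moved the same way as the lysosomal lists, and their part was not tested. Ctsl is counted both as a lysosomal enzyme and as a Sertoli marker.

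TFEB and its relatives bind a motif known as CLEAR, whose core is the palindrome TCACGTGA and which contains the shorter E-box CACGTG. The 250 bases before the RefSeq start of each gene (GRCm38.p6) were searched on both strands for these letters. That start can differ from the GENCODE span given for a gene: the Lgmn window lies inside its span, and the Ctsd, Gla, Mcoln1, Khk and H2-T23 stretches printed overlap GENCODE exons. The CLEAR core was found in 1.6% of 11077 tested genes with a window, in 3 of 29 lysosomal enzyme genes (Ctsa, Ctsd and Gla) and in 2 of 20 membrane and acidification genes (Atp6v1a and Mcoln1). Among other lists, the core lay in 2 of 18 glucose-responsive and polyol genes, 2 of 28 receptor genes of somatic and germ cells and 1 of 12 Sertoli markers. Of engulfment and complement genes, 0 of 18 and 0 of 13 held it. The E-box was found in 9.4% of all windows and in 9 of 29 lysosomal enzyme genes, Lgmn and Ctsl among them. It was also in 4 of 13 circadian clock and 4 of 13 glucocorticoid-responsive genes, but in 0 of 13 complement genes. These matches are descriptions of the windows only. Stretches around the core are shown for 3 genes that rose and hold it, Ctsd (1.30), Gla (0.64) and Mcoln1 (0.56), and around the E-box for Lgmn, each 5′ to 3′ on the gene's strand with the motif in capitals. They lie at chr7:142387908-142387937 (minus strand, motif 99 to 92 bases before the start), chrX:134601215-134601244 (minus, 228 to 221), chr8:3500462-3500491 (plus, 46 to 39) and chr12:102439099-102439178 (minus, 49 to 44). Mcoln1, a calcium channel of the lysosome, kept its rise neither with quantile normalisation nor after median centring nor with the length and GC correction.
Ctsd: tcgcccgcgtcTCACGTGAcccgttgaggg
Gla: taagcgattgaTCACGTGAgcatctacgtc
Mcoln1: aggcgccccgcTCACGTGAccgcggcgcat
Lgmn: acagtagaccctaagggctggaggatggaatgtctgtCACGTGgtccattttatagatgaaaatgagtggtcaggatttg

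**Figure D2:**
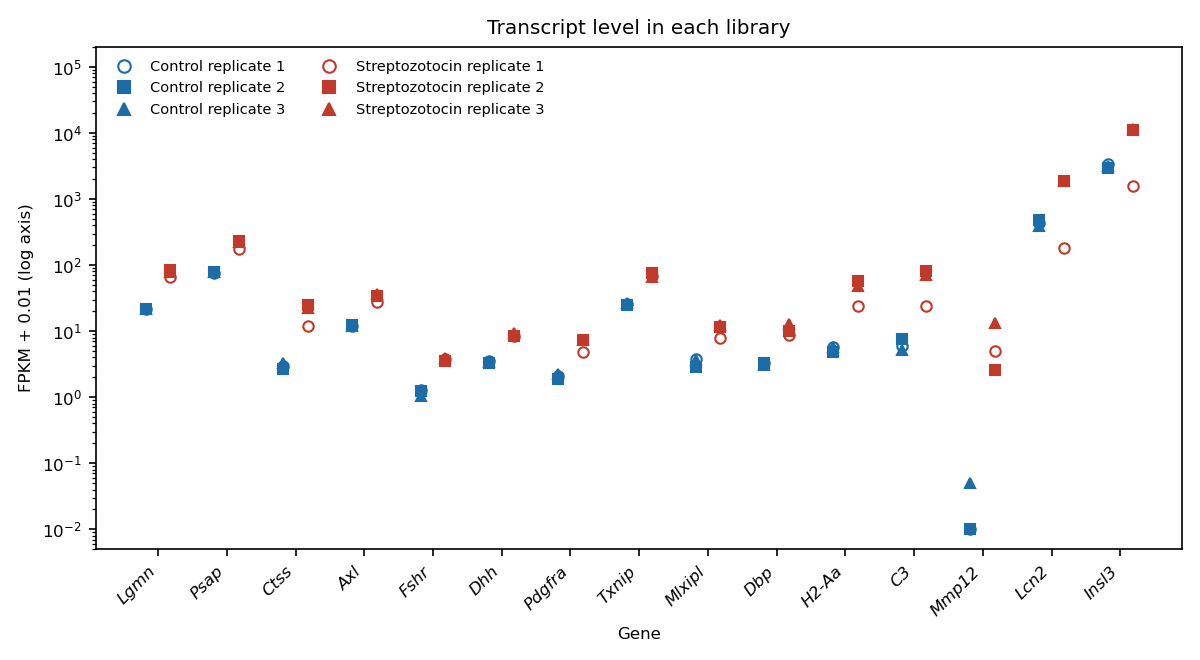
FPKM (plus 0.01, log axis) of 15 genes in each of the 3 control libraries (blue) and 3 STZ libraries (red), with a circle, square and triangle for replicates 1, 2 and 3. The STZ points of Lgmn, Axl, Dhh and Fshr sit together above control, while for Lcn2 and Insl3 the circle of STZ replicate 1 lies below control and its partners above.

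Genes that bind and engulf dying cells rose as well. Of 20 tested (25 listed), 18 rose and none fell, with a median of 0.93 (13 and 1 after median centring, 18 and none without STZ replicate 1). AXL and TYRO3 are receptor tyrosine kinases that recognise phosphatidylserine on dying cells through bridging proteins. Axl (chr7:25757273-25788705, minus strand) went from 11.9, 12.3 and 11.9 FPKM to 27.4, 34.1 and 36.7 FPKM (1.36, SE 0.09, adjusted p = 3e-08). Tyro3 went from 7.45, 7.98 and 7.58 FPKM to 17.4, 21.6 and 22.3 FPKM (1.30, SE 0.09, adjusted p = 4.2e-08). Both genes were higher in each STZ library than in any control library. Mertk, the third member of the family, rose by 0.84. Of their bridging proteins, Pros1 (protein S) rose by 0.99 and Gas6 by 0.43, the latter not after median centring. Lrp1, an engulfment receptor, rose by 1.12, and Abca1, which exports the cholesterol an engulfing cell takes in, rose by 1.32.

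Among complement genes 18 of 22 tested (25 listed) rose and 1 fell, with a median of 1.26 (17 and 2 after median centring). C3, the central component on which all complement pathways meet (chr17:57203970-57228136, minus strand), went from 6.04, 7.46 and 5.11 FPKM to 24.3, 82.6 and 70.6 FPKM (2.90, SE 0.38, adjusted p = 1.7e-05). STZ replicate 1 was well below its partners yet above every control. Cfi, the protease that inactivates C3b, went from 0.46, 0.45 and 0.56 FPKM to 5.69, 5.84 and 4.19 FPKM (difference 2.06). Cfi is 1 of 5 tested complement genes that passed the filter only through the STZ libraries, and its difference is a description. C1s1, a protease of the first component, rose by 2.33, and C4b, the component it cleaves, by 1.97. Serping1, the inhibitor of the first component, rose by 1.87. Cd46, a membrane regulator that mouse germ cells carry on the acrosome, was the gene that fell (−0.23), but not without STZ replicate 2, without control replicate 3 or with only the 6 libraries in the fit.

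Acute phase proteins and serpins rose for 16 of 18 genes tested (30 listed) with none falling, at a median of 1.13 (10 and 2 after median centring). Saa3, an inflammation-induced serum amyloid A, went from 0.36, 0 and 0.36 FPKM to 3.54, 7.31 and 11.2 FPKM (difference 2.65). Serpina3g, a serine protease inhibitor from a cluster of close copies between which reads may be split, had a difference of 2.50. Both passed the filter only through the STZ libraries, so no test is given. Serpina5, the protein C inhibitor, rose by 1.22. Lcn2, the iron-siderophore carrier lipocalin 2, behaved differently. It stood at 431, 476 and 387 FPKM in control and at 184, 1903 and 1871 FPKM in STZ, so replicate 1 lay below every control and replicates 2 and 3 far above. The difference was 1.02 (SE 0.59, adjusted p = 0.15), and 2.13 without STZ replicate 1 (adjusted p = 7.6e-08).

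Antigen presentation genes rose in both classes. Of 6 MHC class II genes tested (10 listed) 5 rose, with a median of 1.28 (4 after median centring, none falling on either scale). H2-Aa, an alpha chain of class II (chr17:34282744-34287823, minus strand), went from 5.81, 4.83 and 5.81 FPKM to 23.9, 57.1 and 47.9 FPKM (2.68, SE 0.32, adjusted p = 7.1e-06). Its STZ values were all above control, and replicate 1 was the lowest of them. H2-Ab1, its beta-chain partner, rose by 1.67. For class I and its peptide supply, 12 of 16 tested (18 listed) rose and none fell, with a median of 0.97 (10 and 1 after median centring). H2-D1, a classical class I heavy chain, went from 31.2, 21.5 and 29.7 FPKM to 57.6, 98 and 98.3 FPKM (1.56, SE 0.20, adjusted p = 1e-05). H2-K1 rose by 1.11 and H2-T23, a non-classical class I gene, by 1.27. H2 genes are near-identical in places and the outbred mice may differ in alleles, so their single values are uncertain. B2m, the shared light chain, overlapped between the groups: 60.7, 45 and 83.2 FPKM in control and 67.4, 163.7 and 184.5 FPKM in STZ (1.04, SE 0.30, adjusted p = 0.0085). Its rise was lost without STZ replicate 3 (adjusted p = 0.057) and with only the 6 libraries in the fit (0.074).

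Interferon-responsive genes often carry the ISRE, whose core was searched for on both strands as GAAA, any 2 bases and GAAA again. It was found in 2.9% of all windows and in 2 of 13 class I genes, B2m and H2-T23, whose stretches follow. Among other lists it was in 3 of 15 acute phase and serpin genes and in 1 of 13 complement genes. The B2m stretch is chr2:122147513-122147592 (plus strand, match 139 to 130 bases before the start). The H2-T23 stretch is chr17:36032806-36032835 (minus strand, 124 to 115), and its match reads on the opposite strand.
B2m: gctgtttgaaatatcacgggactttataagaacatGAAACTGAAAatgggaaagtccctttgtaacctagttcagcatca
H2-T23: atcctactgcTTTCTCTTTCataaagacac

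Psmb8, a catalytic subunit of the immunoproteasome, went from 1.49, 0.59 and 1.19 FPKM to 2.39, 4.74 and 5.09 FPKM (1.26, SE 0.22, adjusted p = 0.00023). Of 31 constitutive subunits 23 rose and 3 fell, with a median of 0.24, but after median centring 1 rose and 12 fell, so the direction of this list rests on the scale. The same holds over all 14164 tested genes, of which 2678 rose and 6119 fell after that centring. Chemokine and receptor genes were mostly too low to test, at 17 of 35. Of these 9 rose and 1 fell, beside 43.2% and 12% of all tested genes, with a median of 0.81 (7 and 3 after median centring). Of the 17, 2 passed the filter only through the STZ libraries and were among the 9 that rose. Ccl6, a CC chemokine of myeloid cells, went from 0.49, 0.44 and 0.15 FPKM to 4.33, 7.61 and 6.64 FPKM (2.38, SE 0.22, adjusted p = 5.9e-07). Cxcl16, a membrane-bound scavenger receptor and chemokine, went from 2.2, 1.79 and 1.91 FPKM to 4.33, 6.83 and 4.78 FPKM (1.07, SE 0.15, adjusted p = 3.5e-05). Both genes were separated between the groups. Ccl8 rose by 1.85, and by 1.18 with adjusted p = 0.086 when STZ replicate 2, its highest library, was left out.

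Extracellular matrix genes were taken by class, with no test between classes. Of 20 basement membrane genes tested (22 listed) 19 rose and none fell, with a median of 0.76 (14 and none after median centring). Of the 20, 4 passed the filter only through the STZ libraries, and all 4 rose. Lama1, a laminin alpha chain of the tubule wall, went from 1.84, 1.84 and 1.63 FPKM to 4.07, 6.06 and 5.54 FPKM (1.16, SE 0.10, adjusted p = 4e-07). All 3 STZ values lay above all control values, with replicate 1 lowest. Lamc1 and Lamb2, the gamma and beta laminin chains, rose by 1.19 each. Col4a1 of the collagen IV network rose by 1.00. Fibrillar and other collagens rose for 3 of 12 tested (15 listed) with none falling, beside 43.2% and 12% of all tested genes. Their median was 0.26, and after median centring 1 rose and 2 fell with a median of −0.08. Col18a1, the endostatin precursor, was among the 3 (1.11). Col1a1, Col1a2 and Col3a1 had differences of 0.33, 0.53 and 0.26 that did not pass, and of 0.64, 0.90 and 0.66 that did without STZ replicate 1, when 9 of the 12 rose.

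Matrix proteases and their inhibitors rose for 16 of 18 genes tested (29 listed), with none falling and a median of 0.84 (13 and 1 after median centring). Mmp12, the macrophage elastase, was at 0, 0 and 0.04 FPKM in control and at 4.94, 2.61 and 13.5 FPKM in STZ. It passed the filter only through the STZ libraries, as did 5 of the 18 genes tested, so its values are a description. It was near 0 in each control and clearly present in each STZ library, although these differed widely. Mmp23 went from 0.46, 0.78 and 0.72 FPKM to 4.71, 4.72 and 5.15 FPKM (1.83, SE 0.14, adjusted p = 9.6e-08). Plat, tissue plasminogen activator, went from 4.03, 4.68 and 4.18 FPKM to 12.5, 18.4 and 14.9 FPKM (1.61, SE 0.11, adjusted p = 3.1e-08). Timp3, an inhibitor of metalloproteases that binds the matrix, rose by 1.28.

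Among listed ligand and receptor genes of somatic and germ cells, more rose than fell on both sides. The lists hold signals between somatic cells, Dhh among them, as well as signals to and from germ cells. Of 25 ligand genes tested (38 listed) 17 rose and 1 fell, with a median of 0.73 (13 and 3 after median centring). Of the 25, 1 passed the filter only through the STZ libraries, and it rose. Of 37 receptor genes tested (45 listed) 26 rose and none fell, with a median of 0.65 (21 and 5). Of the 37, 4 passed the filter only through the STZ libraries, and all 4 rose. Dhh encodes desert hedgehog, the Sertoli ligand that acts on Leydig and peritubular cells (chr15:98891152-98898540, minus strand). It went from 3.5, 3.33 and 3.37 FPKM to 8.48, 8.32 and 9.4 FPKM (1.14, SE 0.09, adjusted p = 7.8e-08). Ptch1, its receptor and a transcriptional target of the pathway, went from 1.49, 1.52 and 1.55 FPKM to 3.03, 3.71 and 3.57 FPKM (0.81, SE 0.10, adjusted p = 9.6e-06). For both genes the libraries of each group lay close together and far from the other group. Smo, the signal transducer, rose by 0.80. Gli1, a target transcription factor that passed the filter only through the STZ libraries, had a difference of 0.64. Over the 6 hedgehog and Notch targets tested (12 listed) 4 rose and none fell (4 and 1 after median centring). Of the 6, 2 passed the filter only through the STZ libraries and were among the 4 that rose.

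Fshr, the receptor for follicle-stimulating hormone on Sertoli cells, went from 1.27, 1.21 and 1.02 FPKM to 3.74, 3.5 and 3.93 FPKM (1.12, SE 0.10, adjusted p = 5.4e-07). Inha, the inhibin alpha subunit, went from 55.8, 51 and 54 FPKM to 76, 140.6 and 156.7 FPKM (1.13, SE 0.17, adjusted p = 6.3e-05). Fshr was even over the 3 STZ libraries, whereas Inha was far lower in replicate 1, though still above control. Pdgfra, a platelet-derived growth factor receptor of interstitial progenitors, went from 2.08, 1.85 and 2.21 FPKM to 4.74, 7.38 and 7.37 FPKM (1.28, SE 0.13, adjusted p = 1.6e-06). Its ligand Pdgfb rose by 1.08, Kitl (stem cell factor) by 0.88, Tgfb3 by 1.24 and Amhr2, the receptor for anti-Müllerian hormone, by 1.08. Bmp8a, a growth factor made by germ cells, was the ligand that fell (−0.28). Many of these genes are made by Sertoli cells, whose 21 tested markers all rose, and the share of that in these rises was not tested. Dhh, Fshr and Amhr2 are themselves among those markers, so the lists are not independent.

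Of 20 glucose-responsive and polyol pathway genes tested (24 listed) 13 rose and 2 fell, with a median of 0.61 (10 and 6 after median centring). Txnip encodes the thioredoxin-binding protein that glucose induces and that restrains glucose uptake (chr3:96557957-96561883, plus strand). It went from 25.5, 24.8 and 26.9 FPKM to 67.9, 76.3 and 65.4 FPKM (1.41, SE 0.20, adjusted p = 3.9e-05). Mlxipl, which encodes the glucose-sensing transcription factor ChREBP, went from 3.82, 2.81 and 3.68 FPKM to 7.79, 11.5 and 12.5 FPKM (1.37, SE 0.13, adjusted p = 9.8e-07). Khk, ketohexokinase, which phosphorylates fructose, went from 1.56, 1.79 and 1.57 FPKM to 3.9, 5.66 and 6.29 FPKM (1.23, SE 0.13, adjusted p = 1.8e-06). None of the 3 overlapped between the groups, and Txnip was as high in STZ replicate 1 as in its partners. Arrdc4, a paralogue of Txnip in the same pathway, rose by 0.71, but not with quantile normalisation.

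The polyol pathway turns glucose to sorbitol and then to fructose. Akr1b3, the aldose reductase of its first step, went from 115.2, 117.2 and 114.3 FPKM to 164.7, 202.6 and 193.7 FPKM (0.68, SE 0.06, adjusted p = 6.7e-07). Sord, the sorbitol dehydrogenase of its second step and an abundant transcript of the germ line, went from 639, 653.7 and 654.8 FPKM to 612.8, 442.3 and 450.4 FPKM (−0.39, SE 0.09, adjusted p = 0.0017). The first step was higher in every STZ library and the second lower, the latter only slightly in replicate 1. With only the 6 libraries in the fit, the fall of Sord was lost (adjusted p = 0.055). Slc2a1, the widely expressed glucose transporter GLUT1, rose by 0.81, and Slc2a3, the GLUT3 of germ cells, fell (−0.19), but not with quantile normalisation, with only the 6 libraries in the fit, or without STZ or control replicate 2. Ogt, the X-linked enzyme that attaches N-acetylglucosamine to proteins, rose by 0.96.

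ChREBP and MLX bind paired E-boxes. The single E-box CACGTG lay in 5 of 18 windows of this list (Arrdc4, Khk, Mlx, Mlxipl and Pfkfb3), against 9.4% of all windows. It also lay in 5 of 21 windows of the spermatid regulators, which mostly fell, and in 0 of 13 of complement genes. The Khk match is part of a full CLEAR core, TCACGTGA. Stretches are shown for 3 of the genes named above. They are chr5:30921476-30921505 for Khk (plus strand, 71 to 66 bases before the start), chr5:135089755-135089834 for Mlxipl (plus, 98 to 93) and chr7:68749389-68749468 for Arrdc4 (minus, 193 to 188).
Khk: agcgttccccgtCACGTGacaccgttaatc
Mlxipl: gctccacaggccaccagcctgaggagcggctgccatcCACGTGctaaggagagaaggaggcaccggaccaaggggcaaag
Arrdc4: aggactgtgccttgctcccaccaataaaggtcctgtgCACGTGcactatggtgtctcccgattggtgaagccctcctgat

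Of 16 glucocorticoid-responsive genes tested (18 listed) 12 rose and none fell, with a median of 0.62 (5 and 2 after median centring). Sgk1, a kinase that corticosteroids induce, went from 1.75, 2.22 and 2.39 FPKM to 6.43, 10.1 and 8.12 FPKM (1.55, SE 0.13, adjusted p = 1.6e-07). Tsc22d3, which encodes the glucocorticoid-induced leucine zipper protein, went from 4.1, 4.99 and 4.72 FPKM to 8.02, 10.4 and 8.6 FPKM (0.83, SE 0.10, adjusted p = 9.6e-06). Both were higher in every STZ library than in any control. Hsd11b1, the enzyme that regenerates active glucocorticoid, had a difference of 1.25 and passed the filter only through the STZ libraries. Of the 16 genes, 2 did so, Hsd11b1 included, and both were among the 12 that rose.

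Of 16 circadian clock genes tested (20 listed) 12 rose and none fell, with a median of 0.49 (7 and 4 after median centring). Dbp, an output transcription factor of the clock (chr7:45705088-45710203, plus strand), went from 3.27, 3.24 and 3.03 FPKM to 8.69, 9.89 and 13 FPKM (1.45, SE 0.15, adjusted p = 1.3e-06). The control libraries were nearly equal, and every STZ library was higher. Bhlhe40, a repressor of the clock, rose by 1.68. Per1, the abundant period gene of the germ line, stood at 38.1 to 40.2 FPKM in control and 34 to 42.8 FPKM in STZ, and its difference of −0.03 did not pass (adjusted p = 0.79), though after median centring it fell (−0.37). The labels give no time of day for collection, so time of collection and treatment cannot be told apart.

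Of 25 genes for metallothioneins and for zinc, iron and haem handling that were tested (27 listed) 18 rose and 1 fell, with a median of 0.74 (11 and 4 after median centring). Of the 25, 2 passed the filter only through the STZ libraries and were among the 18 that rose. Both ferritin subunits rose. Ftl1, the light chain, went from 114.2, 106.2 and 124.1 FPKM to 214.2, 269.8 and 327.7 FPKM (1.21, SE 0.12, adjusted p = 1.1e-06). Fth1, the heavy chain, went from 183.9, 177.1 and 195.9 FPKM to 252.8, 409.4 and 407 FPKM (0.90, SE 0.14, adjusted p = 7.4e-05). Ferritin genes have many processed copies in the genome, so their counts are uncertain. Of the haem oxygenases, the inducible Hmox1 rose by 1.07 and the constitutive Hmox2, far more abundant in testis, fell (−0.27), though not without STZ replicate 2 or 3. Slc30a2, a zinc exporter, rose by 1.16. Mt1, metallothionein 1, stood at 1172 to 1368 FPKM in control and 1156 to 1471 FPKM in STZ, and its difference of 0.12 did not pass (adjusted p = 0.36), though one of 0.29 did with quantile normalisation.

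Regulators that time gene expression in spermatocytes and spermatids went the other way. Of 24 tested, 3 rose and 13 fell, with a median of −0.24 (none and 21 after median centring, 3 and 17 without STZ replicate 1, 1 and 11 with quantile normalisation, 2 and 7 with only the 6 libraries in the fit). Ybx2, a Y-box protein that stores germ-cell mRNA, went from 2046, 1854 and 1956 FPKM to 1580, 1440 and 1479 FPKM (−0.38, SE 0.07, adjusted p = 0.00054). Sox30, a transcription factor that drives spermatid genes, went from 133.7, 134 and 143.1 FPKM to 122, 103.5 and 102.9 FPKM (−0.32, SE 0.07, adjusted p = 0.001). Each was lower in all 3 STZ libraries, though the fall of Ybx2 was lost with quantile normalisation. Brdt, the testis bromodomain protein, fell by 0.29, Boll by 0.26, Rfx2 by 0.23 and Crem, the activator of post-meiotic genes, by 0.21 on the log2 scale, that of Crem not without STZ replicate 3. Rnf8, which ubiquitinates histones before they are replaced, rose by 0.48 and Taf7l by 0.38, neither after median centring.

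Of 38 mitotic cell cycle genes 18 rose and 3 fell, beside 43.2% and 12% of all tested genes. Their median of 0.16 lay beside the 0.17 of all genes, and after median centring 6 rose and 18 fell. On that scale 2678 of all 14164 tested genes rose and 6119 fell. Mcm2, part of the replication helicase, rose by 0.84, Cdk4 by 0.84 and the inhibitor Cdkn1b by 0.96. Plk1, Aurka and Ccnb2, which meiotic divisions also use, fell (−0.23, −0.22 and −0.18), Aurka not without STZ replicate 2. Nuclear receptors and genes of steroid hormone action rose for 17 of 29 tested (39 listed) and fell for 1, with a median of 0.44, but after median centring 7 rose and 9 fell. Of the 29, 1 passed the filter only through the STZ libraries, and it rose. Nr5a1, the steroidogenic factor SF-1 of Leydig and Sertoli cells, went from 13.8, 12.8 and 11.1 FPKM to 18.9, 37.6 and 40.4 FPKM (1.23, SE 0.20, adjusted p = 8.8e-05). Nr6a1, a germ-cell nuclear receptor, fell (−0.29). Of 19 imprinted genes tested (29 listed) 12 rose and 1 fell, with a median of 0.58 (10 and 5). Peg10, a retrotransposon-derived gene, rose by 1.32 and Dcn, the matrix proteoglycan decorin, by 1.83, while Asb4 fell (−0.49).

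Markers of Leydig cells were where STZ replicate 1 differed most from its partners. Of 15 markers 5 rose and none fell (4 and 1 after median centring), beside 43.2% and 12% of all tested genes on the main scale. Of the 15, 1 passed the filter only through the STZ libraries, and it rose. Without STZ replicate 1, 12 of these markers rose. Their sum was 4372, 3851 and 4158 FPKM in control and 2024, 12560 and 13430 FPKM in STZ. Insl3, the Leydig cell hormone of testis descent, made up most of it at 3345, 2929 and 3160 FPKM in control and 1574, 10967 and 11438 FPKM in STZ (0.89, SE 0.50, adjusted p = 0.14). Without STZ replicate 1 its difference was 1.83 (adjusted p = 5e-08).

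**Figure D3:**
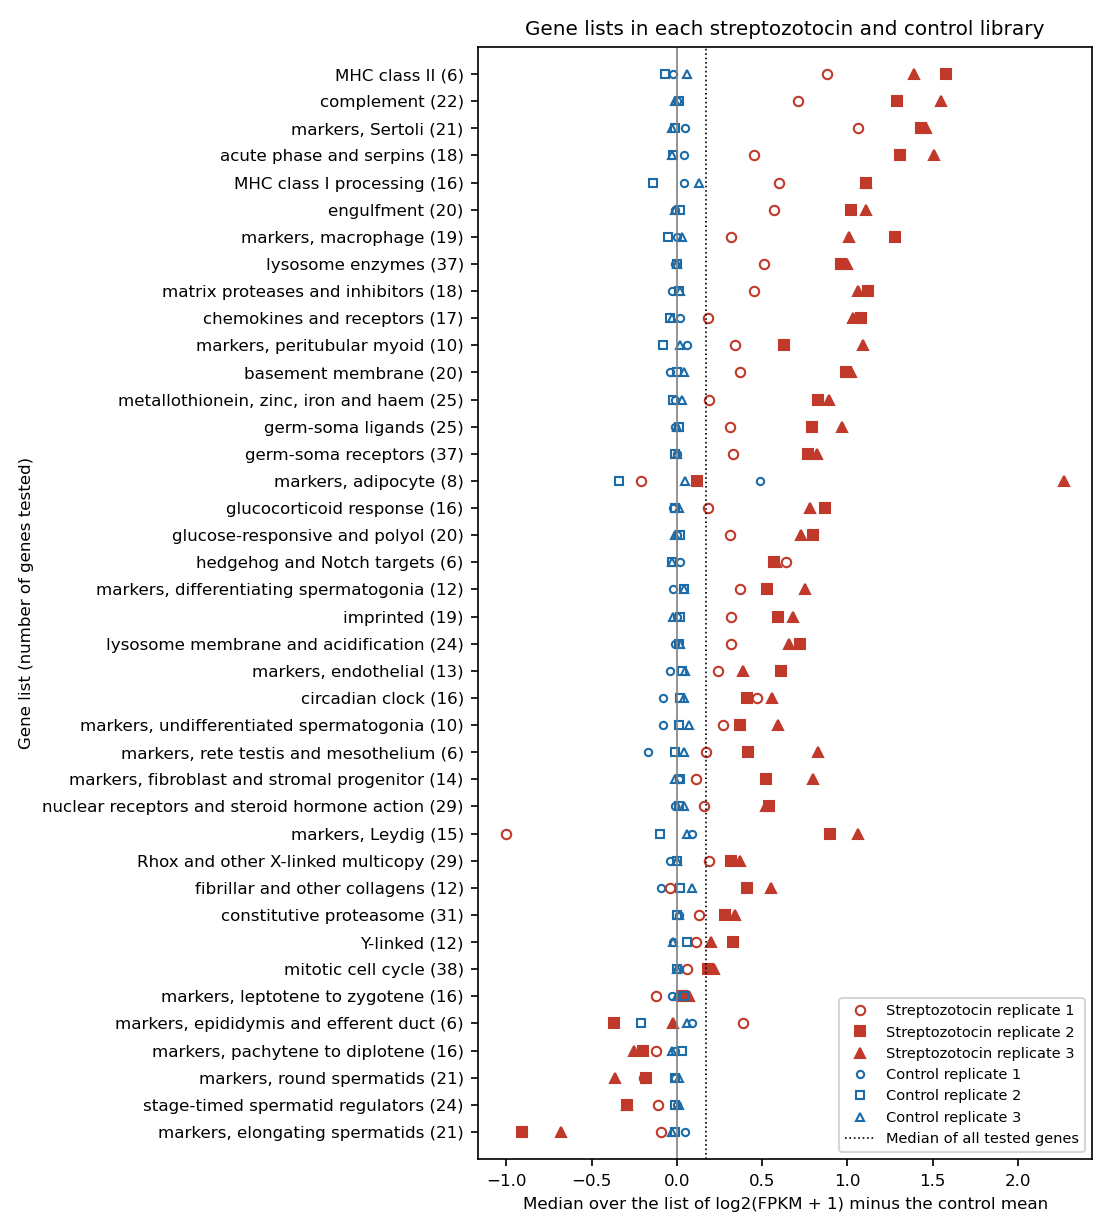
For each gene list, the median over its members of log2(FPKM + 1) minus the control mean, in each control and STZ library, with the median of all tested genes as dotted lines. Sertoli, lysosomal and complement lists lie above control in every STZ library, spermatid lists below, and Leydig markers lie below control in STZ replicate 1 and above it in replicates 2 and 3.

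A widely expressed gene and its germ-line copy can be compared within each library, where a scale factor common to both cancels apart from the added 1. Of 36 such pairs 35 could be tested. The widely expressed member rose in 22 pairs and fell in 1 (Ybx1, −0.17, not with quantile normalisation or with only the 6 libraries in the fit), and the testis member rose in none and fell in 23. Over all tested genes 43.2% rose and 12% fell. In 12 pairs the widely expressed member rose and the testis member fell. The widely expressed member had the higher difference in 34 of 35 pairs, with a median gap of 0.92. The exception was Cstf2 with its copy Cstf2t (0.02 against 0.14). After median centring and with the length and GC correction the gap was again positive in 34 pairs, and with quantile normalisation in 32. After median centring the widely expressed member rose in 19 pairs and fell in 9, and the testis member fell in 31. Without STZ replicate 2 or 3 the testis member fell in 16 pairs, and with only the 6 libraries in the fit in 9. Copies of a gene can share reads, so part of each value may belong to the partner.

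For the RNA helicases Ddx3x, X-linked and widely expressed, and D1Pas1, its testis copy, the log2 ratio of the first to the second was −3.26, −3.24 and −3.17 in the control libraries and −2.28, −1.51 and −1.55 in the STZ libraries. Ddx3x rose by 1.16 and D1Pas1 fell (−0.28). For the glycolytic pair Gapdh and Gapdhs, the latter bound to the sperm tail, it went from −2.43, −2.44 and −2.44 to −1.94, −0.75 and −0.67. All STZ ratios lay above all control ratios in both pairs, and STZ replicate 1 lay between the controls and its partners. Rpl10, an X-linked ribosomal protein gene, overtook its autosomal copy Rpl10l in STZ replicates 2 and 3, with log2 ratios of −0.83, −1.04 and −0.83 in control and −0.05, 0.79 and 0.86 in STZ. Rpl10 rose by 1.29 and Rpl10l did not pass (−0.14, adjusted p = 0.18). The lactate dehydrogenase pair stayed closest, with Ldha at −0.05 and Ldhc at −0.15, neither of which passed.

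**Figure D4:**
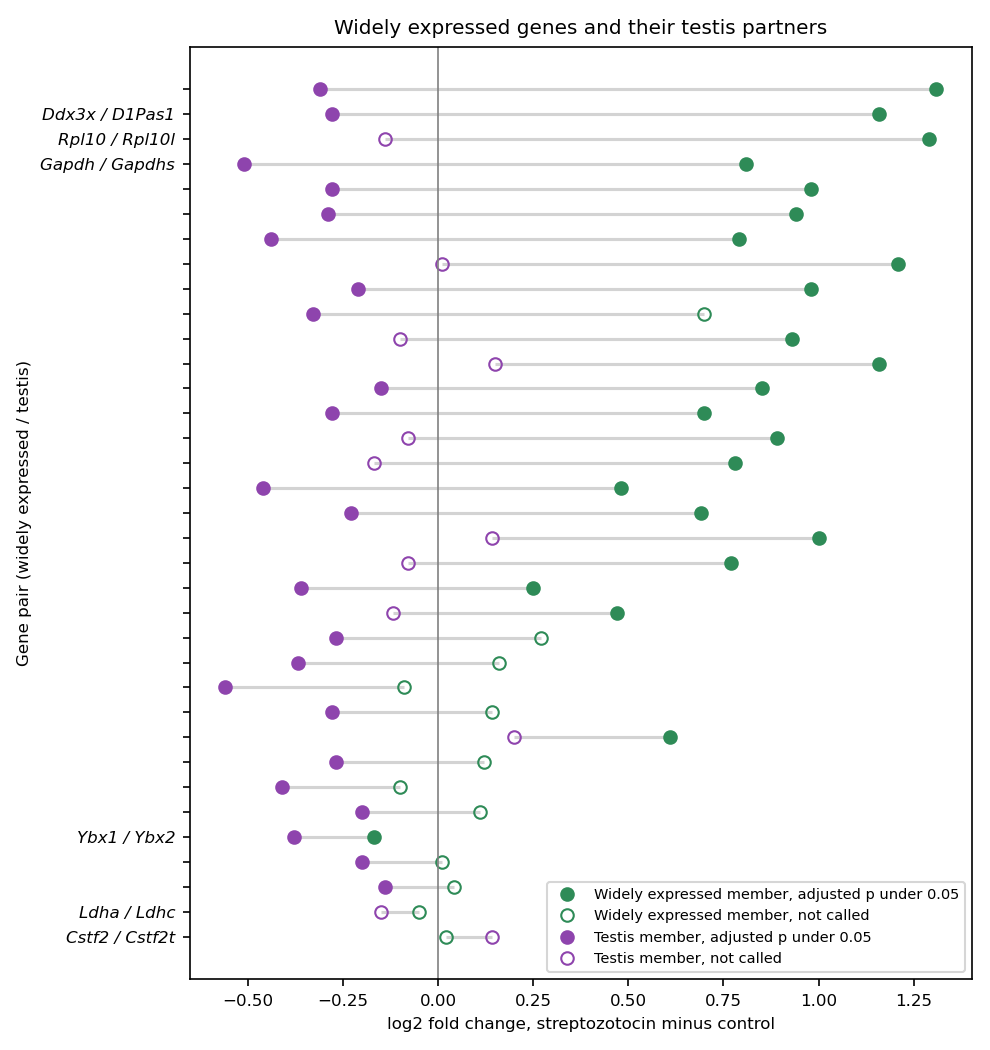
Log2 differences, STZ minus control, of widely expressed genes (green) and their testis-expressed copies (purple), 1 pair to a line, with filled points for an adjusted p under 0.05 and names for the pairs described in the text. The green point lies to the right of the purple one in every pair but Cstf2 and Cstf2t.

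A larger share of X-linked than of autosomal genes rose. Of 634 X-linked genes tested, 324 (51.1%) rose and 59 (9.3%) fell, with a median of 0.33, against 43.6% and 12.2% of 13157 autosomal genes with a median of 0.17. The medians of X-linked genes were 0.18, 0.41 and 0.44 in STZ replicates 1 to 3, and those of autosomal genes were 0.09, 0.21 and 0.24. Each STZ library had the higher median on the X. The median of X-linked genes lay 0.161 above that of all genes, but only 0.057 above with a pseudocount of 5 in place of 1, and it is given as a description. Among the pairs, the widely expressed member is X-linked in 13, of which 9 rose, and autosomal in 22, of which 13 rose. Of 29 Rhox and other multicopy X-linked genes tested (40 listed) 15 rose and 5 fell, with a median of 0.30, beside 51.1% and 9.3% of all X-linked genes. After median centring 4 rose and 10 fell, beside 2678 and 6119 of all 14164 tested genes. Of the 29, 3 passed the filter only through the STZ libraries, and all 3 rose. Rhox8, a homeobox gene of Sertoli cells, rose by 1.16, and Akap4, the X-linked scaffold of the sperm tail's fibrous sheath, fell (−0.54). Of 12 genes tested from a list of 14 Y-linked genes, 5 rose and 2 fell, turning to 2 and 4 after median centring. Of the 12, 1 passed the filter only through the STZ libraries, and it rose. Over all 75 Y-linked genes tested, 9 (12%) rose and 10 (13.3%) fell, beside 43.2% and 12% of all genes. The median of these 75 genes was −0.035. Ddx3y, a Y-linked helicase expressed in many tissues, rose by 0.80.

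Outside the lists, the smallest adjusted p-values belonged to increases. Tspan4, a tetraspanin, went from 3.83, 3.42 and 3.91 FPKM to 20.3, 24 and 25.6 FPKM (chr7:141475240-141493427, plus strand, 2.36, SE 0.11, adjusted p = 2e-09). Ildr2, a membrane protein of the immunoglobulin family, went from 0.12, 0.2 and 0.22 FPKM to 2.9, 3.23 and 2.75 FPKM (difference 1.75). It passed the filter only through the STZ libraries, so its small p is no added support. St6galnac6, a sialyltransferase, went from 4.16, 4.36 and 4.31 FPKM to 11.4, 11.7 and 11.6 FPKM (1.25, SE 0.06, adjusted p = 2.7e-09). In all 3 genes the replicates of a group were nearly level. Zyx, zyxin of focal adhesions, rose by 1.62. Among the largest increases were Syngr1, a synaptic-vesicle protein (2.78), Cnn3, an actin-binding calponin (2.55), and Lbh, a transcriptional cofactor (2.50).

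Decreases were small and few genes fell far. The smallest adjusted p among them was that of Mpp6, a membrane-associated guanylate kinase, at 89.2, 91.6 and 85.6 FPKM in control and 69.4, 67.9 and 65.7 FPKM in STZ (−0.39, SE 0.04, adjusted p = 1.9e-06). Cyp2a12, a cytochrome P450, went from 13.9, 13.3 and 10.9 FPKM to 7.8, 4.72 and 7.21 FPKM (−0.87, SE 0.13, adjusted p = 4.9e-05). Neither overlapped between the groups. The predicted gene Gm10057, on the X chromosome, was among the largest falls (−2.62), but its libraries scattered, at 12.1, 15.9 and 23.7 FPKM in control and 0.16, 9.61 and 0.9 FPKM in STZ. Its fall was lost without control replicate 3, without STZ replicate 1 or 3 and with weighted libraries. Gm5645 (−2.08) and Gm15140 (−1.44) are predicted genes from families of close copies, whose single values are uncertain.

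The other 9 streptozotocin libraries lay near control for most genes. Over all genes, STZ differed from their mean for 8837 genes (62.4%), 6735 higher (47.6%) and 2102 lower (14.8%). By at least 1 on the log2 scale, 749 (5.29%) were higher and 9 (0.0635%) lower. Their mean differed from control for 5 genes (0.0353%), 1 higher (0.00706%) and 4 lower by more than 1 (0.0282%), with 1013 at an unadjusted p under 0.05. Without control replicate 1 it was 2 genes, without control replicate 2 it was 0, and with weighted libraries 52. These comparisons share libraries with the one above, so only values are set side by side. Lgmn ranged from 21.4 to 29.4 FPKM in the 9 libraries, Axl from 12.1 to 15.5, Dhh from 3.06 to 4.15, H2-Aa from 5.3 to 9.63, Txnip from 25.3 to 42.3 and Dbp from 3.51 to 5.35. Each range lay below the lowest STZ value of that gene. Sord ranged from 614.6 to 684.6 FPKM, above every STZ value. Insl3, at 1828 to 3492 FPKM, lay above STZ replicate 1 and below its partners.

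The 5 genes were Grb7, a signalling adaptor, and 4 of the kallikrein family. Grb7 was at 1.2, 0.81 and 0.75 FPKM in control, 1.71 to 2.57 FPKM in the 9 libraries and 2.41, 2.82 and 2.11 FPKM in STZ, a difference from control of 0.70 (adjusted p = 0.017) for the 9 and of 0.85 (adjusted p = 4.9e-05) for STZ. The 4 kallikreins fell in the 9 libraries (Klk1b21 −3.28, Klk1b22 −1.67, Klk1b24 −3.11 and Klk1b27 −2.80) and differed from control by −2.63, −1.61, −2.32 and −2.09 in STZ. They are close copies in a single cluster, so reads may be split among them.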

How the data were processed

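RNA from testis was made into Illumina libraries and 1 table of gene values for 18 libraries was deposited. Its header names no unit. The values were taken as FPKM, which the authors' deposited table does not state, because library sums were alike and low values fell with transcript length. That second relation was weak: the value taken as 1 read had a Spearman rho of −0.27 with transcript length over 184 genes. The unit, and above all its scaling to length, therefore remains uncertain. Bowtie 0.12.2 and mm10 are named in the submitters' processing notes. No source used here names the gene models or the counting program. Depth is unknown: of 1383 low values, 53.3% lay within 0.15 of a whole number of reads where an even spread gives 30%, so reads were not recovered and no count test was run. Without depth no counting interval is given, and precision rests on the 3 libraries per group.

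Values were transformed as log2(FPKM + 1). Genes at 1 FPKM or more in at least 3 libraries were fitted with limma 3.58.1 (R 4.3.3, trended variance) as 6 group means over 18 libraries with 12 residual degrees of freedom. The STZ against control fit was tried on simulated data with the means and spread of the 14164 genes in the 18 libraries. It recovered 96% of genes changed by 1 on the log2 scale and 62% changed by 0.5, with 6 false calls. Each gene was simulated with the same spread in every group, whereas the median SD was 0.16 in STZ and 0.079 to 0.089 elsewhere. Recovery at the wider spread of the STZ libraries was not tested. Columns were matched to samples by name. Gene positions are from GENCODE M21 (GRCm38, the assembly also called mm10), and windows before start sites from RefSeq (GRCm38.p6).

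Genes named are members of the lists, pairs and marker sets, the 20 largest changes in each direction among called genes without overlap and with a mean of at least 1 FPKM, and the 10 smallest p-values in each direction, with a few genes not reported here. Lists, members and alternatives were chosen with earlier results of these data known. Alternatives were other pseudocounts, filters and scalings, library weights, a replicate block, a fit on only the groups compared, and leaving out each library. Whether equal replicate numbers mark shared animals is not stated. Figures were drawn with matplotlib 3.10.9.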

Additional observations from a re-analysis of the deposited data

How the results depend on the processing

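The 3 libraries per group and the unknown depth limit small differences, above all of genes near 1 FPKM. The count of genes that differed between STZ and control was 5132 with only the groups compared (7823 as reported). The count that rose was 3709 with a filter of 5 FPKM, 3156 with quantile normalisation, 2678 after median centring and 3500 with the length and GC correction. The count that fell was 4093, 6119 and 4720 on the latter 3 scales and 649 with only the groups compared, and ranged from 1130 without STZ replicate 3 to 2117 without STZ replicate 1. List members that differed numbered 232 with the filter of 5 FPKM (381 as reported), where fewer genes are tested. The median of X-linked genes above that of all genes was 0.263 with a pseudocount of 0.1, 0.057 with 5, 0.09 with no filter, 0.069 with the filter of 5 FPKM and 0.088 with quantile normalisation (0.161 as reported). For the mean of the other 3 streptozotocin groups against control, the count was 3 with a pseudocount of 0.1, 3 with the filter of 5 FPKM, 52 with weighted libraries, 32 with only the groups compared, and 0 to 6 over the fits that left out a library. Among genes that passed before or after the change, directions turned for Ldha (0.10) and Ldhc (0.23) with quantile normalisation and for Cstf2 (−0.33) after median centring, while Mt1, Per1, Cstf2t, Col1a1 and Col3a1 changed sign only where they did not pass. The causes of these shifts were not tested.

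The replicate numbers of the labels did not pair the libraries: deviations of equally numbered control and STZ libraries correlated at −0.087, −0.023 and −0.019. With the number as a replicate block, 7742 genes differed (6075 rose, 1667 fell), 377 list members differed, the widely expressed member rose in 22 pairs, the X-linked gap was 0.161, and 8758 and 0 genes differed in the comparisons with the other streptozotocin groups. With only the groups compared, Akap4, Gapdhs, Plk1, Aurka, Ccnb2, Crem, Hmox2, Bmp8a, Arsa, Ybx1, Cd46, Slc2a3, Aif1, Sord and B2m no longer passed.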
